A study of Mus musculus with 6 samples.

Results

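Genes that mark radial glia and neural stem cells, 10 in all, were followed in cultured mouse astrocytes given a control lentivirus or a lentivirus carrying Cre recombinase: Prom1, Nes, Vim, Fabp7, Tnc, Msi1, Msi2, Hopx, Nr2e1 and Cd44. The members were chosen by gene symbol in the platform annotation, and the list itself was drawn up with earlier Cre against control results of these arrays in view, among them the Prom1 difference. All comparisons of Cre with control below are therefore a description of these genes and support nothing about the group. Each of the 10 genes had 1 probe except Msi2, which had 2, so that the list covers 11 of the 23473 probes and 10 of the 19321 named genes on the array. All 11 probes lay above background (the mean of the blank spots plus 2 SD) on all 6 arrays.

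The astrocytes came from cerebral cortex of newborn (P0) C57BL/6J mice homozygous for the floxed allele of Chd7 (Chd7flox/flox), a gene of an ATP-dependent chromatin remodeller. All cultures, controls included, carried the floxed alleles and grew in medium that held B-27, serum (10% FBS) and the growth factors EGF and FGF2. The 3 control samples received the control lentivirus and the 3 Cre samples, titled Chd7 KD, the Cre lentivirus; RNA was taken 3 days later and read on 1-colour arrays, 1 per sample. Cre was present only where Chd7 was targeted, so that an action of the enzyme itself and the loss of Chd7 cannot be told apart. The promoter driving Cre and the share of infected cells are not given in the sources used here. The labels do not say whether replicates were separate cultures or animals, so the spread between arrays may be technical.

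Radial glia are the stem cells of the developing brain; they span the wall of the neural tube, divide at the ventricle and give rise to neurons and later to astrocytes. Many of their genes stay on in the stem cells of the adult brain and in immature astrocytes, and come back in astrocytes that are cultured or injured. FGF2 and EGF in the medium are the growth factors used to keep neural stem cells dividing in culture, so that the genes described here are read in cells held in a growth-promoting state.

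The promoter sequences shown are those of Prom1 and Hopx, the member with the largest difference between Cre and control cultures and the member with the widest spread over the 6 arrays. They are windows of 250 bases before to 50 after a transcription start, written on the gene's strand, from RefSeq, build GRCm38.p6. Both genes have 2 such windows and both lie on the minus strand. Capitals mark matches on either strand to any of 6 short motifs: the GC box GGGCGG, the CCAAT box CCAAT, the TATA box TATAAA, the RBPJ core TGGGAA of Notch signalling, the SOX core CATTGT and the NR2E1 site core AAGTCA.
Prom1 upstream window, chr5:44101687-44101986: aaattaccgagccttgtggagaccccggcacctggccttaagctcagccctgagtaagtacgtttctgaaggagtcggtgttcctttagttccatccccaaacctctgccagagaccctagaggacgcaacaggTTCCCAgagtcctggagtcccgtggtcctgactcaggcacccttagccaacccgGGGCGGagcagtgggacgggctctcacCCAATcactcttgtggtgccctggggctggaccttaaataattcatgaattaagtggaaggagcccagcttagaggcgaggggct
Prom1 downstream window, chr5:44094719-44095018: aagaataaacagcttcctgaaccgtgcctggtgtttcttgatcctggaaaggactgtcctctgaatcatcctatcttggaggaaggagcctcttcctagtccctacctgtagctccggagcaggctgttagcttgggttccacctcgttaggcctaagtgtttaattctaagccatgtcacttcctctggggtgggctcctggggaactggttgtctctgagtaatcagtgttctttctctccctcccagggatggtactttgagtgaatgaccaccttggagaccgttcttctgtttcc
Hopx upstream window, chr5:77115074-77115373: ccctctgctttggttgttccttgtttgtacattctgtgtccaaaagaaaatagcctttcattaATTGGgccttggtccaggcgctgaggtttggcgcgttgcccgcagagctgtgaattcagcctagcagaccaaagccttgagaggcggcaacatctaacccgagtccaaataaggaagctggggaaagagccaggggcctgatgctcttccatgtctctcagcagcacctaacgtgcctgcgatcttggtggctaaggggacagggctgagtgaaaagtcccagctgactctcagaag
Hopx downstream window, chr5:77095218-77095517: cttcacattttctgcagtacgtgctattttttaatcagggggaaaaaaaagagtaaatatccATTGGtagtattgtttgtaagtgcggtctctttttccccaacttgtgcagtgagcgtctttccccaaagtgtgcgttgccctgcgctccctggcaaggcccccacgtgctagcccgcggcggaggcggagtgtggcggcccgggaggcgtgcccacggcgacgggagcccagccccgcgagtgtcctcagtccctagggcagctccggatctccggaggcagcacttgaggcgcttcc

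The upstream Prom1 window held a GC box, a CCAAT box and an RBPJ core, and none of the 6 motifs was found in the downstream one. Each Hopx window held 1 CCAAT box. Windows were found for 9 of the 10 genes, 14 windows in all. The CCAAT box occurred in 8 of the 14, from 5 genes (Prom1, Vim, Fabp7, Msi2 and Hopx), and in 37.4% of all 32851 windows of the same length. The GC box also occurred in 8, from 5 genes (Prom1, Nes, Tnc, Msi2 and Cd44), and in 35.7% of all. The RBPJ core occurred in 6, from 5 genes (Prom1, Fabp7, Tnc, Nr2e1 and Cd44), and in 25.6% of all. The NR2E1 site core occurred in 2, of Fabp7 and of Nr2e1 itself (15.1% of all). The TATA box occurred in 3, of Vim and Tnc (13.6% of all), and the SOX core in none of the 14 windows (12.6% of all). Windows of 1 gene can overlap, as those of Msi2 do, and were counted separately. GC content ran from 47.3% in a Tnc window to 76.3% in an Msi2 window, with a median of 58% over the 14 windows and 52.7% over all. A match describes letters in a window and no binding was measured.

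The arrays were first checked for Chd7. Its brighter probe, M300016343, read 6.92, 7.50 and 6.95 log2 units on the control arrays and 6.00, 5.97 and 6.00 on the Cre arrays, with no overlap and a difference of -1.13 (SE 0.16, n = 3 per group). The authors' linear values of that probe were 42, 89 and 46 in control and 8, 7 and 8 in Cre cultures. The size of the Chd7 difference depended on the correction, at -0.52 with the local background, -1.83 with an offset of 16 and -2.71 both with plain subtraction and in the authors' values. The other probe, M400002483, lay close to background with a difference of -0.11 (SE 0.06). The share of probes above background was 87.4 to 90.7% on control arrays and 82.8 to 87% on Cre arrays. Precision is limited by having 3 arrays a group. All 11 astrocyte markers checked were above background on enough arrays to be tested. So were 20540 of the 23473 probes and 10 of 11 microglia markers, and passing this filter does not tell cell types apart. Log2 intensities below are background-corrected against the blank spots and quantile normalised, and are not comparable between probes.

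Among the members, Prom1 was the one gene whose Cre arrays all read above its control arrays. Prom1 encodes prominin, a cholesterol-binding glycoprotein of membrane protrusions that is used as CD133 to sort neural stem cells. Its probe M300006480 read 7.54, 7.59 and 7.55 log2 units in control cultures and 8.07, 8.10 and 8.36 in Cre cultures. The control arrays lay within 0.06 units of each other, and Cre replicate 3 was the highest of the 6. The difference was 0.61 log2 units (SE 0.08, 95% interval 0.40 to 0.83, n = 3 per group), or 1.53-fold, and it had the same sign in the 3 same-numbered pairs at 0.53, 0.51 and 0.81. In the linear values that the authors deposited, Prom1 read 79, 98 and 85 in control and 128, 114 and 164 in Cre cultures, again without overlap and with means in a ratio of 1.55. In limma's fit over all 20540 probes kept, with Benjamini-Hochberg adjustment, Prom1 did not pass (adjusted p = 0.405), and neither did any other probe on the array.

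**Figure D1:**
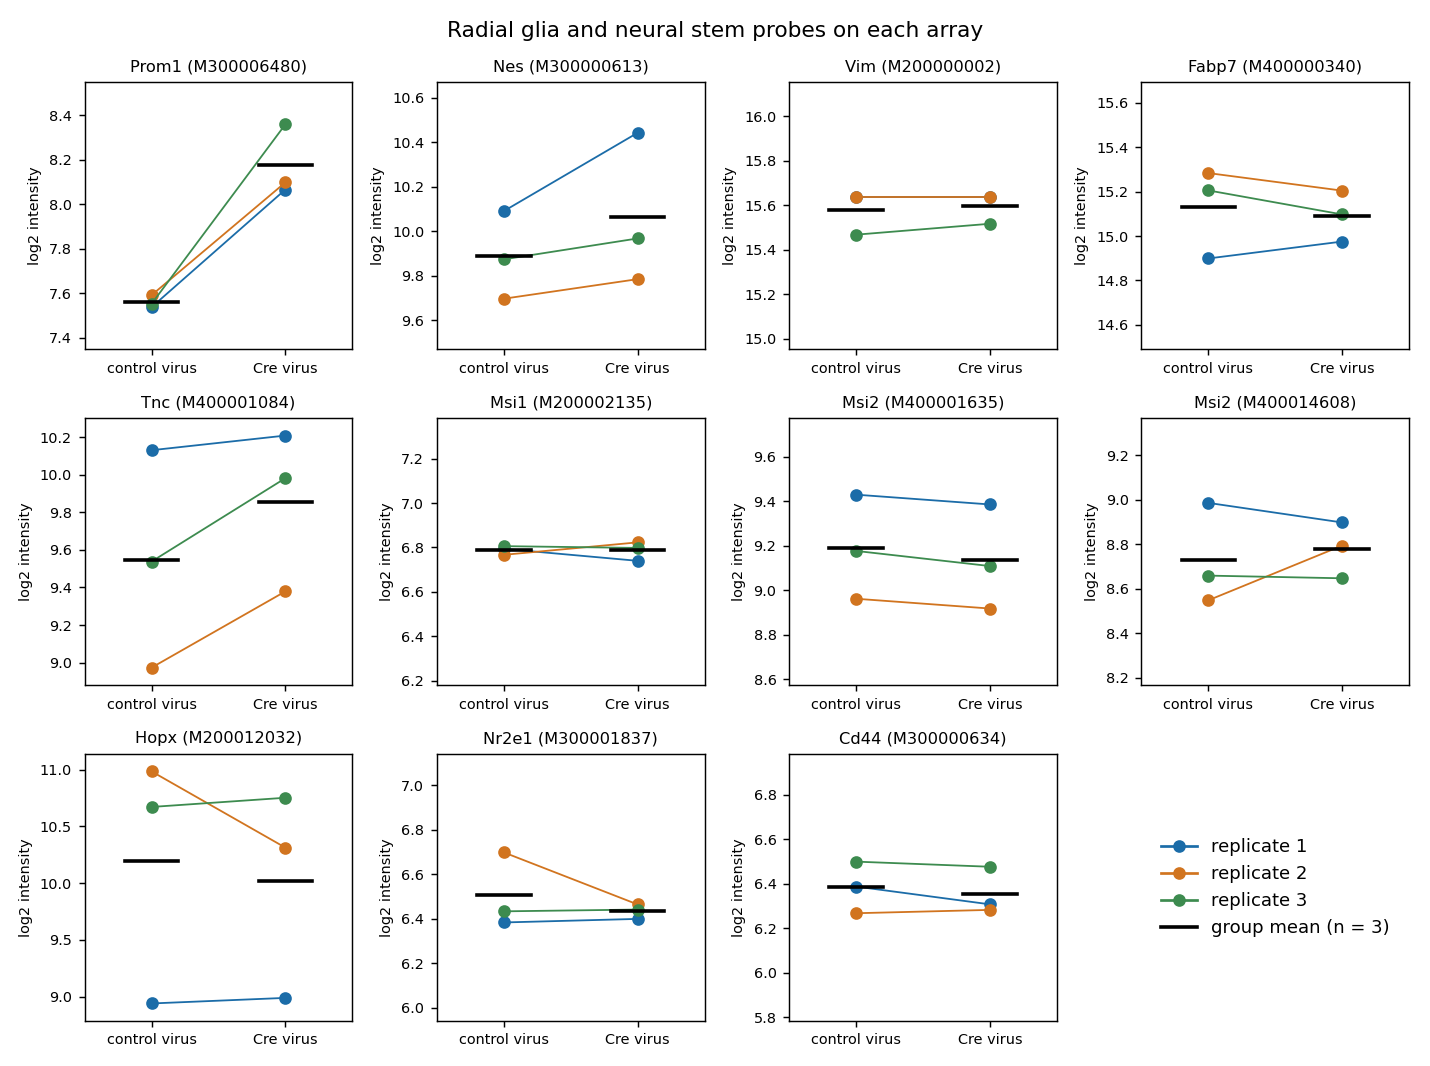
Log2 intensity (background-corrected, quantile normalised) of the 11 member probes on each of the 6 arrays, each panel on its own scale; dots are arrays, lines join arrays with the same replicate number and black bars are group means. The 3 Cre arrays of Prom1, at 8.07 to 8.36, lie above its 3 control arrays, while in Tnc and the brighter Msi2 probe the lines keep their order and in Hopx replicate 1 is lowest in both groups; in Vim, replicates 1 and 2 share the top value and are drawn over each other.

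The limma fit called 0 of the 11 member probes at an adjusted p of 0.05, against 0 of all 20540 probes (0%). At an unadjusted p under 0.05 it had 1 member, Prom1, with 5.61% of all probes. The groups did not overlap for 1 member, again Prom1, and for 10.5% of all probes. The contrast is the one known when the list was drawn up, and these counts are given without a reading. Of the 11 probes, 5 were higher and 6 lower in Cre cultures, with a median difference of -0.002 log2 units, next to a median of -0.0006 over all probes. The median size of the difference, regardless of sign, was 0.052 for the members and 0.049 for all probes. In RNA from whole cultures, fewer cells of a type and less RNA per cell cannot be told apart.

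**Figure D2:**
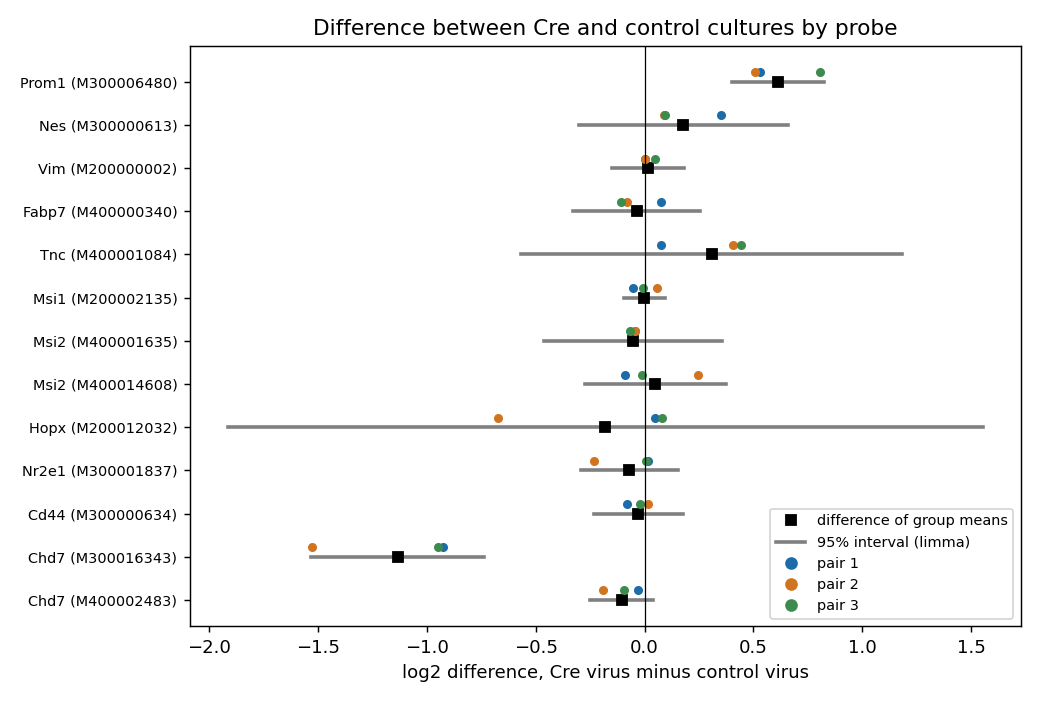
Difference in log2 intensity, Cre minus control virus, for the 11 member probes and the 2 Chd7 probes. Squares are differences of group means, grey bars are limma's 95% intervals and coloured dots are the 3 same-numbered pairs. The interval of Prom1 (0.40 to 0.83) and that of the brighter Chd7 probe lie to one side of 0, and that of Hopx is the widest, from -1.91 to 1.55.

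Nes and Vim encode the intermediate filaments nestin and vimentin, which together build the filament network of radial glia and immature astrocytes. Nes read 10.09, 9.70 and 9.87 log2 units in control and 10.44, 9.79 and 9.97 in Cre cultures, so that the groups overlapped. Each Cre array lay above the control array of the same number, by 0.35, 0.09 and 0.09. The difference was 0.18 (SE 0.19, 95% interval -0.30 to 0.66). With the replicate block its SE was 0.07 (limma adjusted p = 0.582). Without Cre replicate 1, which unbalances the replicate numbers between the groups, the difference read -0.01. The authors' linear values did not keep that order: Nes read 593, 534 and 582 in control and 768, 423 and 559 in Cre cultures, where 2 of the 3 Cre arrays lay below their control partner. The authors' values have a median difference of -0.16 log2 units over all probes, and relative to that shift Nes read 0.15. Vim was the brightest probe of 4 arrays and ranked 3 on control replicate 3 and 2 on Cre replicate 3. Quantile normalisation gives the brightest probe of every array 1 shared value, here 15.64, so the difference of 0.02 (SE 0.07) for Vim is held near 0 by that step. In the authors' values, which had no such step, Vim read 30578, 27956 and 27905 in control and 30354, 29880 and 29319 in Cre cultures, a spread of 1.10-fold from the lowest to the highest array, with overlapping groups.

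Fabp7 encodes the brain lipid-binding protein, a fatty acid carrier of radial glia and astrocytes that is a known target of Notch signalling. Its probe ranked between 7 and 12 on the arrays by brightness. It read 14.90, 15.28 and 15.20 log2 units in control and 14.98, 15.20 and 15.10 in Cre cultures, a difference of -0.04 (SE 0.12, 95% interval -0.33 to 0.25). The lowest array of each group was replicate 1. The authors' linear values gave the same low arrays, 17903 in control and 18608 in Cre cultures, with the other four arrays between 21039 and 23731.

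Tnc encodes a protein of the matrix around the cells, and Cd44 a receptor that binds a part of that matrix. Tenascin-C, the product of Tnc, is a large glycoprotein of the stem cell niche, and Cd44 encodes the hyaluronan receptor of astrocyte precursors and of many immune and mesenchymal cells. Tnc read 10.13, 8.97 and 9.54 log2 units in control and 10.21, 9.38 and 9.98 in Cre cultures. The groups overlapped, and each Cre array lay above its same-numbered control, by 0.08, 0.41 and 0.44. The difference was 0.31 (SE 0.35, 95% interval -0.57 to 1.18), and once replicate number was added as a block its SE was 0.09, with a limma adjusted p of 0.470. Leaving out 1 array unbalances the replicate numbers between the groups. The Tnc difference then ranged from 0.02 (without control replicate 2) to 0.60 (without control replicate 1). It read 0.13 without Cre replicate 1 and 0.55 without Cre replicate 2. The authors' linear values for Tnc were 617, 312 and 445 in control and 654, 312 and 564 in Cre cultures, with replicate 2 equal in both groups. Cd44 was dim, at 6.27 to 6.50 log2 units on all 6 arrays, with a difference of -0.03 (SE 0.08, 95% interval -0.23 to 0.17). Its authors' linear values lay between 15 and 25, at or below the array median of 25.

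Msi1 and Msi2 encode the Musashi proteins, RNA-binding proteins that hold back translation of target messages in stem cells. Msi1 had the narrowest spread of the members, from 6.74 to 6.82 log2 units over the 6 arrays, and a difference of -0.002 (SE 0.04, 95% interval -0.10 to 0.09). Its signal was low, at 33 to 39 in the authors' linear values. Msi2 was read by 2 probes annotated to the same transcript. Probe M400001635 read 9.43, 8.96 and 9.18 in control and 9.39, 8.92 and 9.11 in Cre cultures, a difference of -0.05 (SE 0.16) that was almost alike in the 3 pairs (-0.04, -0.04 and -0.07). Probe M400014608 read 8.99, 8.55 and 8.66 in control and 8.90, 8.79 and 8.65 in Cre cultures, a difference of 0.05 (SE 0.13). The probes thus differed in sign, each by less than its SE in the fit without pairs. With the replicate block the SEs were 0.04 for M400001635 and 0.08 for M400014608 (limma adjusted p = 0.795 and 0.939). Both probes had replicate 1 as the highest array of each group.

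Hopx and Nr2e1 encode nuclear factors of stem cells. HOPX is a small homeodomain protein without DNA contact, known from outer radial glia and from adult hippocampal stem cells, and NR2E1 (TLX) is an orphan nuclear receptor that keeps adult neural stem cells dividing. Hopx read 8.94, 10.98 and 10.67 log2 units in control and 8.99, 10.31 and 10.75 in Cre cultures. The replicate 1 array was the lowest of each group by more than 1 unit, and the groups overlapped throughout. The difference was -0.18 (SE 0.70, 95% interval -1.91 to 1.55), an interval that reaches up to a 2.93-fold higher level in Cre cultures. Its sign changed with 1 array left out. It read -0.81 without control replicate 1, but 0.21 without control replicate 2, 0.06 without control replicate 3 and 0.33 without Cre replicate 1. Leaving out 1 array also unbalances the replicate numbers between the groups. The same-numbered pairs of Hopx read 0.05, -0.67 and 0.08. With the replicate block its SE was 0.18 (limma adjusted p = 0.879). Without both replicate 1 arrays the Hopx difference was -0.29. Nr2e1 was dim, between 6.38 and 6.70 log2 units, and its highest array was control replicate 2. The Nr2e1 difference was -0.07 (SE 0.09, 95% interval -0.29 to 0.15), with pairs at 0.02, -0.23 and 0.01.

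In the members other than Prom1 and Msi1, most of the spread over the 6 arrays lay between replicate numbers. For Vim that share, 95.8%, is set by quantile normalisation, which gave replicates 1 and 2 the shared top value in both groups. In the authors' values, without that step, limma's replicate term described below gave Vim an unadjusted p of 0.74. The Vim share is counted in the median over the 11 probes. Hopx spanned 2.04 log2 units over the 6 arrays, a 4.12-fold range that was the 40th widest of 20540 probes, and 94.5% of its sum of squares lay between replicate numbers and 1.17% between the viruses. In the authors' linear values Hopx stood at 254 and 266 on the replicate 1 arrays and between 629 and 1266 on the other four. Tnc went the other way, with means of 10.17, 9.18 and 9.76 log2 units for replicates 1, 2 and 3, as did Nes (10.27, 9.74 and 9.92) and the brighter Msi2 probe (9.41, 8.94 and 9.14). Replicate 1 thus had the lowest Hopx and Fabp7 and the highest Tnc, Nes and Msi2 in control and Cre cultures alike. Over the 11 probes, the median share of the sum of squares between replicate numbers was 84.4%, next to 46.9% over all probes. The lowest shares were those of Msi1, at 30.1%, and of Prom1, which had 4.07% between replicate numbers and 91.4% between the viruses.

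**Figure D3:**
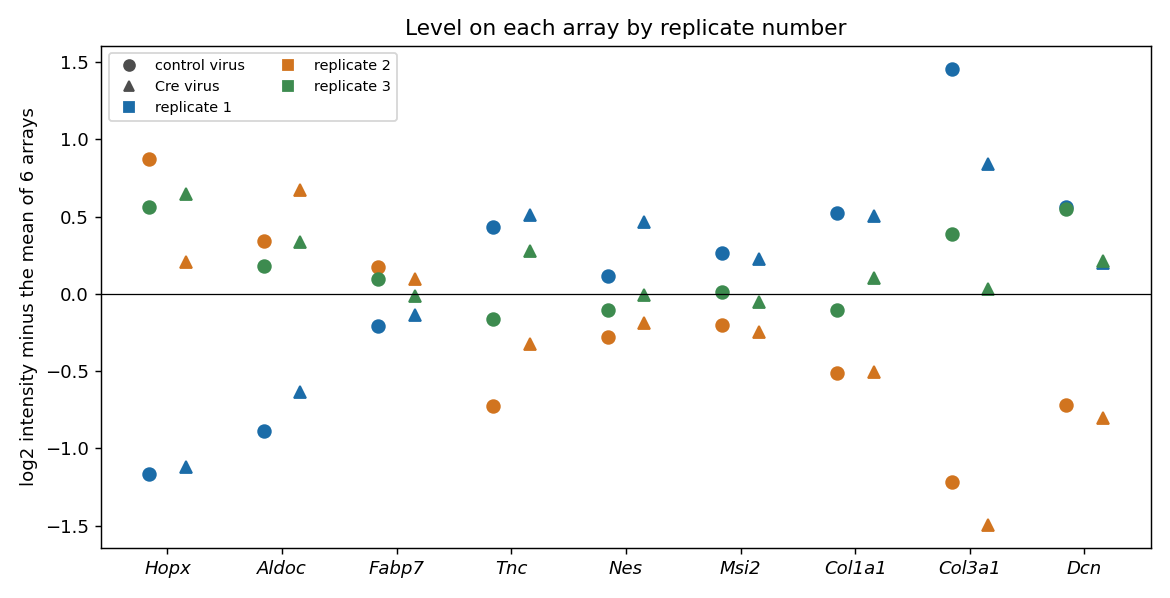
Log2 intensity minus the mean of the 6 arrays for 5 member genes (Hopx, Fabp7, Tnc, Nes and the brighter Msi2 probe), for Aldoc and for 3 fibroblast genes. Circles are control and triangles Cre arrays, coloured by replicate number. Replicate 1 is lowest in Hopx, Aldoc and Fabp7 and highest in Tnc, Nes, Msi2, Col1a1 and Col3a1 in both groups; in Dcn it is level with replicate 3.

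The replicate number was also fitted as a term across all probes, a comparison separate from the virus contrast and chosen after the values were seen. At an unadjusted p under 0.05 it had 6 of the 11 member probes (Nes, Fabp7, Tnc, the brighter Msi2 probe, Hopx and Cd44), with 14.1% of all 20521 probes measured on every array. The member count depended on the setting. It fell to 2 members and 2.82% of probes with the local background, 2 and 5.94% with median scaling, and 2 and 14.7% with plain subtraction. In the authors' values it was 3 and 10.7%, and with an offset of 16 it was 5 and 15.7%. With no filter it rose to 7 and 13.1%. None of the members passed limma's adjusted threshold of 0.05 (smallest adjusted p = 0.136, for Msi2; 0.158 for both Hopx and Tnc), and nor did any other probe (0%). The count past the adjusted threshold also depended on the correction. With a normexp offset of 16 in place of 50, 296 probes passed, Hopx (adjusted p = 0.016) and Tnc (0.0343) among them; with plain subtraction of the blank mean 206 passed, with Hopx (0.0358) and without Tnc (0.119). Over the 8 settings the limma adjusted p of Hopx ranged from 0.016 to 0.925.

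Markers of fibroblasts and mural cells, which cultures from cortex can hold, also differed by replicate number. At an unadjusted p under 0.05, 7 of the 9 markers did so in the replicate term, next to 14.1% of all probes, and 0 passed the adjusted threshold. Col3a1, a fibrillar collagen chain, read 9.34, 6.67 and 8.27 log2 units in control and 8.72, 6.39 and 7.92 in Cre cultures. Col1a1, another collagen chain, had means of 7.01, 5.98 and 6.49 for replicates 1, 2 and 3. Dcn, the gene of the proteoglycan decorin, was lowest on replicate 2, with means of 7.05, 5.90 and 7.05. By replicate mean, 5 of the 9 markers were highest on replicate 1. The summed authors' values of the 9 markers were 10486, 8814 and 6280 in control and 9113, 5731 and 6340 in Cre cultures. Replicate 1 had the highest sum in each group, and the lowest was replicate 3 in control and replicate 2 in Cre cultures. Acta2, by far the brightest of the 9 at 12.96 to 13.98 log2 units, weighs most in these sums. Its unadjusted limma p in the replicate term was 0.055. Astrocyte markers were mixed. The replicate term had 4 of 11 at an unadjusted p under 0.05, and the mean was lowest on replicate 1 for 5 of the 11 (Gfap, Slc1a2, Slc1a3, Glul and Aldoc), while Aqp4 was highest there at 10.77 against 10.71 on the others. Their summed authors' values were lowest on replicate 1 in each group, at 5068 of up to 8896 in control and 6721 of up to 8534 in Cre cultures. Aldoc, the gene of an astrocyte aldolase, read 10.70 and 10.96 log2 units on the replicate 1 arrays against 11.77 to 12.26 on the others. The part of these cells in the spread of Hopx, Tnc and Nes was not tested.

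Other cell type markers were set beside the Prom1 difference, for which 0 genes of any list passed the all-probe threshold (smallest limma adjusted p = 0.405). Of 11 astrocyte markers, 10 were higher in Cre cultures (median 0.23), led by Aldh1l1 at 0.72 (SE 0.17), Gfap at 0.33 (SE 0.17) and Hepacam at 0.32 (SE 0.05), and Sox9 read -0.05. Of 10 microglia markers, 7 were lower (median -0.14), led by C1qb at -0.71 (SE 0.17), C1qa at -0.67 (SE 0.11) and C1qc at -0.37 (SE 0.10), while Csf1r read 0.09, P2ry12 0.04 and Ptprc 0.01; their summed authors' values did not overlap, at 234 to 269 in control and 119 to 174 in Cre cultures. Ependymal cells, which also carry prominin, had 5 of 5 markers measured higher (median 0.07), with sums of 309 to 607 in control and 360 to 664 in Cre cultures, which overlapped. Cfap126 at 0.24 (SE 0.29), Rsph1 at 0.10 (SE 0.19) and Foxj1 at 0.07 (SE 0.33) differed by less than their SE. These SEs hold the spread between replicate numbers. The same-numbered pairs read 0.18, 0.31 and 0.25 for Cfap126, 0.04, 0.07 and 0.18 for Rsph1, and 0.31, -0.49 and 0.39 for Foxj1. Tmem212 at 0.05 and Dnah5 at 2.5e-05 lay close to background, at 5.72 to 5.84 log2 units. The part of these cell types in the Prom1 difference was not tested.

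The remaining lists of other cells overlapped between the groups in their summed values. Of 10 neuroblast and neuron markers, 6 were higher (median 0.02), with Neurod1 at 0.46 (SE 0.07), Nefm at 0.39 (SE 0.07), Tubb3 at 0.24, Stmn2 at -0.34 (SE 0.12), Syt1 at -0.17 and Map2 at -0.11. Of 8 oligodendrocyte lineage markers, 2 were higher (median -0.02; sums 1498 to 2820 and 1377 to 2121), with Olig1 and Olig2 at -0.09, Pdgfra at -0.07, Cspg4 at 0.03 and Mbp at 0.001. Of 9 fibroblast and mural markers, 3 were higher (median -0.10), with Rgs5 at 0.15, Col1a1 at 0.06, Des at 0.05, Col3a1 at -0.42 (SE 0.87), Dcn at -0.26 and Lum at -0.23. Of 6 endothelial genes, Pecam1, Cldn5 and Tek were not above background on enough arrays, and among the 3 measured Kdr read 0.03, Cdh5 0.01 and Flt1 -0.05 (sums 56 to 173 and 50 to 116). Of 5 proliferation markers, 4 were higher (median 0.02; sums 2372 to 3985 and 2558 to 3346), with Mcm2 at 0.15 (SE 0.11), Cdk1 at 0.03, Pcna at 0.02 and Mki67 at -0.003.

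Of 43 other genes of radial glia and neural stem cells, 40 were measured. Of the 40, 26 were higher and 14 lower in Cre cultures, with a median of 0.03, and 0 passed (smallest limma adjusted p = 0.537). At an unadjusted p under 0.05 there were 2 higher and 1 lower of the 40, next to 5.61% of all probes. The largest positive differences were those of Mfge8, a secreted bridging protein for phagocytosis, at 0.38 (SE 0.08), the filament gene Gfap at 0.33 (SE 0.17) and Aldoc at 0.25 (SE 0.46). The largest negative ones were those of the transcription factor genes Nfib at -0.30 (SE 0.15) and Lhx2 at -0.28 (SE 0.33) and of the adhesion gene Cdh2, N-cadherin, at -0.26 (SE 0.26). Mfge8 was the one of these 6 without overlap between the groups. Among all 40, the groups did not overlap for 4 higher and 1 lower, next to 10.5% of all probes. The replicate term had 14 of the 40 at an unadjusted p under 0.05, next to 14.1% of all probes, and 0 passed the adjusted threshold.

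Relatives and partners of the members were measured for 27 of 30 genes: the second prominin, other intermediate filaments, fatty acid binding proteins, tenascins, nuclear receptors, genes of hyaluronan and CD44 ligands, and partners or targets of the Musashi proteins. Of these 27, 16 were higher and 11 lower, with a median of 0.03, and 0 passed (smallest limma adjusted p = 0.537). The neurofilament gene Nefm stood highest at 0.39 (SE 0.07), from 6.31 log2 units in control to 6.70 in Cre cultures, both close to background. Gfap and the cell cycle inhibitor gene Cdkn1a, a Musashi target, followed at 0.33 and at 0.29 (SE 0.16). The hyaluronan synthase gene Has2 stood lowest at -0.40 (SE 0.48), and the hyaluronan-binding proteoglycan gene Vcan and the synthase gene Has1 read -0.11 and -0.05. Has2 also followed the replicate number, with means of 7.59, 6.24 and 7.17 log2 units for replicates 1, 2 and 3.

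The correction for background moved several of these differences. Prom1 kept its sign in the 15 other settings run, between 0.50 and 0.78, and between 0.52 and 0.67 with 1 array left out. Among the 15, other filters and the replicate block could not change its difference from the main one. With the scanner's local background column, Tnc read -1.10 in place of 0.31, Nes 0.80 in place of 0.18, Fabp7 0.58 in place of -0.04 and Hopx -0.72 in place of -0.18. The authors' values put Tnc at 0.14, or 0.30 relative to their median over all probes.

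**Figure D4:**
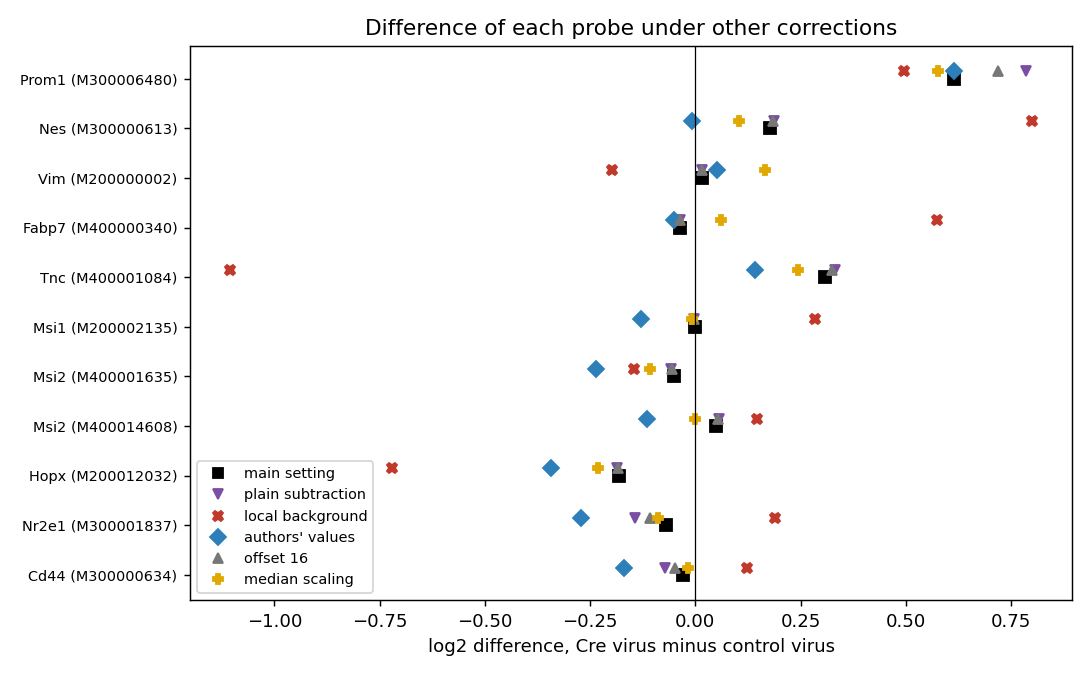
Difference in log2 intensity, Cre minus control virus, of the 11 member probes in the main setting (squares) and under 5 other background corrections, offsets or normalisations. Prom1 lies between 0.50 and 0.78 in all of them; the crosses of the local background column stand farthest out for Tnc (-1.10), Nes (0.80) and Fabp7 (0.58).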

How the data were processed

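Total RNA of the 6 samples was amplified to aminoallyl RNA and coupled to Cy5, per the labels' protocols. The scanner files give 1 median intensity and 1 local background intensity per spot, per the file headers. The authors also deposited a table of linear intensity values. A comparison with the scanner values showed a linear scale without centring of genes: in every column, close to the array's blank mean was subtracted from the spot medians and the rest divided by 1.44 to 1.94, for a column median of 25. The sources used here do not state the method.

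Intensities were corrected by normexp against 2736 blank spots (limma 3.58.1, R 4.3.3; nec, offset 50), log2 transformed and quantile normalised; the offset compresses differences of dim probes. From 0 to 9 spots an array carried a scanner flag and were dropped. Probes above background on at least 3 arrays were kept (20540). Cre and control were compared with limma (two-sided; lmFit and eBayes) and p-values were adjusted by Benjamini-Hochberg over the kept probes, at 0.05. The fits were tested on simulated data. Of the 23473 probes, 20690 had 1 gene symbol and 2783 none. The authors' values were also taken as log2(value + 1). Alternatives were other backgrounds, an offset of 16, median scaling, other filters, a replicate block and leaving arrays out.

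Same-numbered arrays deviated together from the group means (r = 0.498, 0.425 and 0.436), and samples with 1 number were treated as a pair; the labels state no shared litter, culture or day. The members and lists were chosen with earlier results of these data known. Named genes were all members, Chd7 and, from each other list, up to 3 genes with the largest difference in each direction, by the brightest probe. Further markers are named where a count or a sum needed them.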

Additional observations from a re-analysis of the deposited data

How the results depend on the processing

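For Cre against control, 0 probes passed limma's adjusted threshold under all 15 alternatives, the replicate block included (0, with 1918 at an unadjusted p under 0.05); by that unadjusted measure the count ranged from 615 (median scaling) to 1918, with 1869 in the authors' values. The block changed no call among the members. Of 165 member values under these alternatives, 152 moved by less than the SD within groups and 13 by more, 8 of these with the local background column. That SD holds the spread between replicate numbers, so that for Hopx even -0.72 with the local background counts among the 152. The sign turned in 5 of the 15 alternatives for Fabp7 and for Msi1, in 4 for Vim and in 0 for Prom1. The 152 include all values under other filters and the replicate block, which cannot change a member's difference. The dimmer Chd7 probe turned to 0.044 with that column. The median over the members read 0.15 with the local background and -0.12 in the authors' values (all probes 0.03 and -0.16), 0.025 without both replicate 1 arrays, and -0.0070 to 0.045 with 1 array left out, the highest without control replicate 1. Members without overlap numbered 2 with the local background, with median scaling and without both replicate 1 arrays, and 1 to 2 with 1 array left out (2 without control replicate 1). The share over all probes was taken only in the main setting (10.5%), and a lack of overlap is easier to reach with fewer arrays. These counts are therefore given without a reading. For the replicate term, 206 probes passed with plain subtraction, 296 with an offset of 16, 38 with median scaling and 17 among probes above background on all arrays. The count was 0 in the main setting, with the local background, in the authors' values and with no filter. Members at an unadjusted p under 0.05 numbered 2 with plain subtraction (14.7% of all probes), 2 with the local background (2.82%) and 2 with median scaling (5.94%). They numbered 3 in the authors' values (10.7% of all probes), 5 with an offset of 16 (15.7%) and 7 with no filter (13.1%). The cause was not tested. The replicate term, the count without overlap under alternatives and leaving out both replicate 1 arrays were chosen after seeing the data. Cd44, Nr2e1, Msi1 and the dimmer Chd7 probe lie close to background, where the offset limits what a difference can show.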
